A study of Drosophila melanogaster with 12 samples.

Results

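The transcriptomes of male and female control larvae of Drosophila melanogaster were compared at L3, the third larval instar, using the 3 control male libraries and the 3 control female libraries among the 12 libraries of the study. The other 6 libraries came from larvae with a clamp null allele, CLAMP being a zinc finger protein that binds GA-rich DNA, and the study asked which splicing events differ between the sexes and which of them change when CLAMP is lost. Each library held total RNA from 3 whole larvae of the control (yw) genotype, marked by yellow and white, with no treatment given in the labels. Messenger RNA was selected on poly-T beads, copied from random primers without a step that marks strand, and sequenced from both ends. A whole larva mixes all tissues, and in such bulk samples fewer cells of a type cannot be told apart from less RNA per cell. The sex of a library was taken from its title, because the sex field of the labels gives female for every control library, including those titled M. The deposited values were TPM, a relative abundance corrected for transcript length in which the values of a library sum to 1000000. They were summed over the transcripts of each gene, and 11239 of 13771 quantified genes, those whose mean over the 6 libraries reached 1 TPM, were tested.

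As background, the L3 testis is a large organ of the male larva in which germ cells have become primary spermatocytes. These cells transcribe most of the genes later used to build sperm, under testis forms of the general transcription machinery and of a MYB-containing repressor and activator complex. The larval ovary is small, and its germ cells have not begun to make eggs. Sex itself is set by an RNA splicing cascade, in which Sex-lethal (Sxl) protein in females directs female splicing of transformer (tra), Transformer with Transformer 2 directs female splicing of doublesex (dsx), and the absence of Sxl in males permits translation of male-specific lethal 2 (msl-2), a subunit of the dosage compensation complex that raises transcription of the single male X.

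The libraries resembled each other more within a sex than between the sexes, with correlations of gene levels of 0.933 to 0.958 within and 0.699 to 0.769 between. Males had between 11226 and 11321 genes at 1 TPM or more, and females between 9131 and 9532. The read depth behind the TPM values is unknown, so a gene listed at 0 was not detected rather than shown to be absent. Of 87 genes named RpL or RpS, leaving out those with like in the name, RpL10Aa, RpL37-2, RpS19b and RpS28a were listed at 0 in at least 1 of these libraries, and these 4 were higher in males. The labels do not say that the libraries of a sex came from separate crosses, so p-values measure the spread between these samples only.

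The transcripts of the sex determination genes were read against the titles, with forms defined from the annotated proteins after their values had been seen. The male form of dsx, which encodes the annotated protein of 549 residues, was at 9.75, 9.07 and 6.23 TPM in males and also at 5.38, 3.28 and 4.15 TPM in females. The female form, with 427 residues, was at 0, 0.27 and 0.41 TPM in males and at 2.12, 0.62 and 0.32 TPM in females. The male form therefore made up 100, 97.1 and 93.8% of dsx in males and 71.7, 84.1 and 92.9% in females, which was higher in every male (exact permutation test, two-sided p = 0.1, the smallest that 3 against 3 libraries allow). The share of tra in the form with the long protein of 197 residues, the female form, was 52.7, 80.2 and 66% in males and 84.6, 96.3 and 93.1% in females, again without overlap (66.3% ± 13.7 against 91.3% ± 6, SD, n = 3, exact p = 0.1). The forms of Sxl with the exon that ends the protein early in males overlapped between the sexes (exact p = 0.8), and so did the forms of msl-2 that keep or remove the intron to which Sxl binds (exact p = 1). No form of these 4 genes was therefore carried by one sex alone, and the dominant dsx form was the male one in all 6 libraries, female-titled ones included. Of 70 tested genes of the testis lists described below, 18 averaged 1 TPM or more in both sexes. All 18 were higher in every library titled male than in every library titled female. The other 52 and the 6 tested Y-linked genes averaged under 1 TPM in females. They entered the test through the males, so their direction was fixed by the filter.

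**Figure D1:**
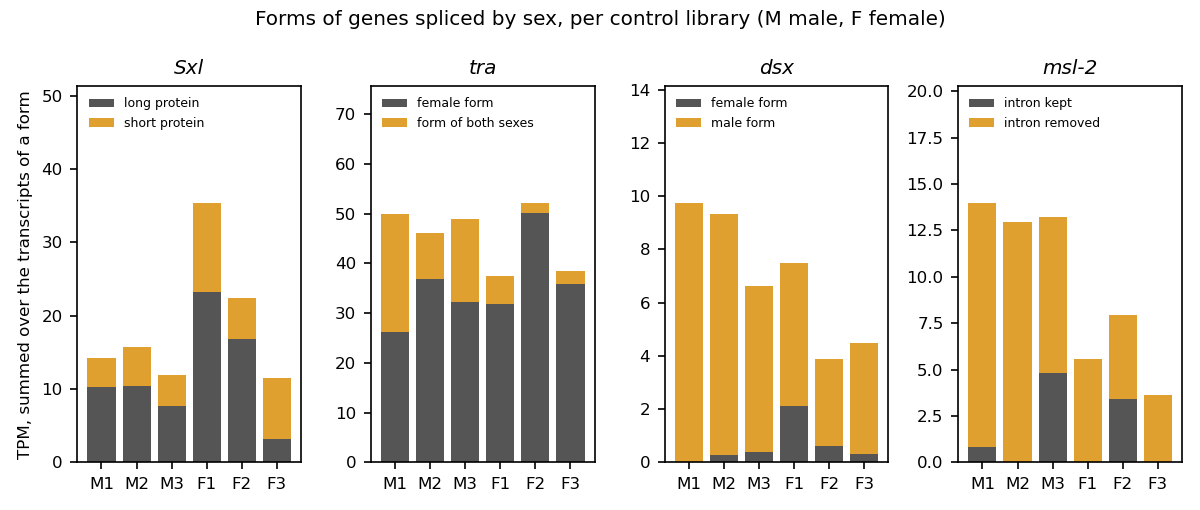
Levels in TPM of the annotated forms of Sxl, tra, dsx and msl-2 in each control library, as stacked bars for males 1 to 3 (M1 to M3) and females 1 to 3 (F1 to F3). Both forms of tra appear in all 6 libraries, and the male form of dsx is the larger part of every bar.

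The sexes differed in a large part of the genes, most of them higher in males and most of those very low in females. Of the 11239 genes, 3121 (27.8%) were higher in males and 305 (2.71%) were higher in females at an adjusted p under 0.05 (limma on log2(TPM + 1), Benjamini-Hochberg adjustment over all genes tested), while 7813 did not pass. Differences are given as male minus female on that log2 scale with the standard error of the fit, which understates the change of low genes, and the value of a gene listed at 0 depends on the added 1 TPM and is not a bound. At least 5 log2 units separated the sexes in 253 genes higher in males and in 1 gene higher in females. The median difference was 2.27 among the genes higher in males and -1.03 among those higher in females, against 0.36 over all genes tested. Every male library lay above every female library for 3114 of the 3121 genes, and every female above every male for 298 of the 305, beside 39.2% and 5.89% of all genes tested. Of the genes tested, 1848 averaged under 1 TPM in females and 130 in males, and among the 9261 at 1 TPM or more in both sexes, 1513 (16.3%) were higher in males and 289 (3.12%) in females. With libraries scaled by the median of gene ratios, the median of all genes moved from 0.36 to 0.09 and the calls became 2473 higher in males and 659 higher in females, so that males held 79% of the calls in place of 91.1%.

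The genes higher in males made up 9.97, 11 and 11.5% of all TPM in males and 2.79, 2.89 and 2.63% in females, so they were many but mostly of modest level. The genes higher in females made up 5.58, 4.69 and 5.68% in males and 9.99, 10.7 and 11.5% in females. A set of 627 genes was at 5 TPM or more in every male and under 0.5 TPM in every female, and 723 of the genes higher in males were listed at 0 in all 3 females. The reverse pattern, 5 TPM or more in every female and under 0.5 TPM in every male, was seen in 1 gene, CG43182. The count of genes higher in females depended on single libraries, ranging from 139 without control male 3 to 482 without control female 1, and it was 158 without control male 1, 150 without control female 2 and 163 without control male 2. The count higher in males stayed between 2510 and 3269 when any library was left out.

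The 10 genes with the largest differences toward males were all autosomal and were abundant in males beside traces in females. The leading gene was CG31226, at 3R:18851305-18851798 of BDGP6 and known only by its annotation number, at 471, 557 and 747 TPM in control males and 0, 3.83 and 0 TPM in control females (8.43 ± 0.59, adjusted p = 2.03e-05). Dpy-30L2, a paralog of a subunit of histone methyltransferase complexes, was at 390.1, 450.4 and 513 TPM in control males and 1.23, 0 and 0 TPM in control females (8.43 ± 0.33, adjusted p = 4.16e-06). Mst84Da, a structural protein of the sperm tail, was at 182, 307 and 505 TPM in control males and 0 in every control female (8.26 ± 0.35). The males were far above the females in each of these genes, and the only traces were in control female 2 for CG31226 and in control female 1 for Dpy-30L2. Mst84Da overlaps MstProx on the annotation, and without strand the reads of overlapping genes cannot be told apart. The other 7 were numbered genes without a name (CG3124, CG31740, CG17377, CG9920, CG34168, CG15219 and CG12860), with differences from 7.63 to 7.95. CG12860, for example, was at 234, 230.3 and 255 TPM in control males and 0, 0.78 and 0 TPM in control females.

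The genes of spermatogenesis rose together in males. Of the 72 members of 6 lists of testis genes, 70 could be tested and 69 were higher in males, all without overlap. The median difference of the 70 was 4.58, and 19 of the 72 were listed at 0 in every female. Of the 70, 52 averaged under 1 TPM in females and entered the test through their male values, so that their direction was fixed by the filter. The other 18, at 1 TPM or more on average in both sexes, were all higher in males, beside 16.3% of the 9261 genes at that level in both sexes. The summed TPM of the 72 members was 0.443, 0.499 and 0.612% of the library in males and 0.005, 0.01 and 0.004% in females. Control female 2 carried the most of these transcripts among the females, with 49 of the 69 genes above 0 against 21 in control female 1 and 24 in control female 3, and with 177 of the 627 male-only genes above 0 against 43 and 39. The part of these traces in the differences was not tested, and 69 members were again called without control female 2, with 68 or 69 called in every omission of 1 library. The member that was not called, mia, a testis form of a TFIID subunit, was at 2.6, 1.69 and 3.18 TPM in control males and 0.46, 2.23 and 0.21 TPM in control females (0.94 ± 0.41, adjusted p = 0.133), and control female 2 lay within the male range.

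The regulators of the spermatocyte program had the smallest differences of these lists. Of the testis TFIID subunits and the subunits of the testis MYB complex known as meiotic arrest genes, with their partners, 13 of 15 could be tested and 12 were higher in males, with a median of 2.96. Taf12L, a testis TFIID subunit, was at 42, 35.4 and 46.1 TPM in control males and 0, 8.14 and 0 TPM in control females (4.33 ± 0.80, adjusted p = 0.00448). Its whole female signal came from control female 2, below every male. The gene wuc, a LIN-52 relative in the testis complex, was at 24.2, 14.8 and 22.4 TPM in control males and 0 in every control female (4.39). Its DNA-binding partner tomb was at 23.2, 23.3 and 15.4 TPM in control males and 1.69, 0.38 and 0.53 TPM in control females (3.58), and the homeodomain protein vis was at 16.9, 18.4 and 11.2 TPM in control males and 0.5, 2.62 and 0.97 TPM in control females (2.88). The males were higher in each of these genes without overlap, and tomb overlaps Cap-D3.

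Genes of male meiosis and of translation in spermatocytes were all called in males, 6 of 6 with a median of 3.46. The initiation factor eIF4E3, a cap-binding protein needed for male meiosis, was at 59, 59.2 and 86.3 TPM in control males and 7.81, 6.29 and 4.57 TPM in control females (3.26 ± 0.25, adjusted p = 3.28e-05). Boule (bol), an RNA-binding protein that permits translation of twine, was at 66.3, 50.5 and 52.2 TPM in control males and 6.66, 1.89 and 0.6 TPM in control females (4.12). The gene fest was at 48.3, 36.1 and 29.1 TPM in control males and 0, 0.49 and 0 TPM in control females (5.06). Twine (twe), the Cdc25 phosphatase that starts meiosis, was at 15.9, 18.8 and 17.3 TPM in control males and 3.52, 3.37 and 3.98 TPM in control females (1.99 ± 0.19, adjusted p = 0.000115). Females were below all males in these genes, with fest listed at 0 in control female 1 and control female 3 and twe above 3 TPM in all 3 females. The twe locus overlaps EndoGI, and the form of twe in females was another than in males, as described with the splicing events below.

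The structural genes of the spermatid were the most abundant and the most different. All 14 genes of spermatid chromatin and the sperm tail were higher in males with a median of 6.83, and they summed to 2078, 2527 and 3339 TPM in males against 10.1, 37.5 and 11.3 TPM in females. Mst87F, a tail protein rich in cysteine, glycine and proline, was at 289, 468 and 634 TPM in control males and 5.53, 13 and 9.12 TPM in control females (5.50 ± 0.37, adjusted p = 1.55e-05). Its relatives Mst84Db and Mst84Dd differed by 7.14 and 6.85, with female traces of 0, 6.13 and 0 TPM for Mst84Db. Members of this family are short and alike, so the share of reads given to each is uncertain. The chromatin proteins that replace histones in the sperm head were also present as transcripts. Mst77F, a linker-histone-like protein, was at 228, 193 and 235 TPM in control males and 0.93, 1.88 and 0.44 TPM in control females (6.77), and the protamine ProtA was at 123, 148 and 186 TPM in control males and 0, 0.69 and 0 TPM in control females (6.99), where ProtA and its near copy ProtB may share reads. These last 2 genes were named after their values had been seen.

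The cup and comet genes, known for transcription after meiosis in spermatids, were likewise higher in males in 14 of 14 cases, with a median of 4.1. The gene soti, an inhibitor of a ubiquitin ligase in spermatids, was at 38.5, 50.4 and 57.9 TPM in control males and 0, 0.33 and 0 TPM in control females (5.49 ± 0.25, adjusted p = 4.78e-06). The genes w-cup and c-cup differed by 5.38 and 4.96, while m-cup, at 43.4, 41.3 and 40.6 TPM in control males and 9.89, 7.53 and 6.27 TPM in control females (2.29), kept the highest female level of the list. All 8 sperm leucyl aminopeptidases, abundant proteins of the mature sperm, were higher in males with a median of 6.7. S-Lap1 was at 196, 218 and 249 TPM in control males and 0.37, 1.63 and 1.02 TPM in control females (6.83) and loopin-1 was at 196, 226 and 245 TPM in control males and 0, 3.64 and 0 TPM in control females (7.06). No male overlapped a female in these genes, and the family members are similar enough that reads may be split between them.

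**Figure D2:**
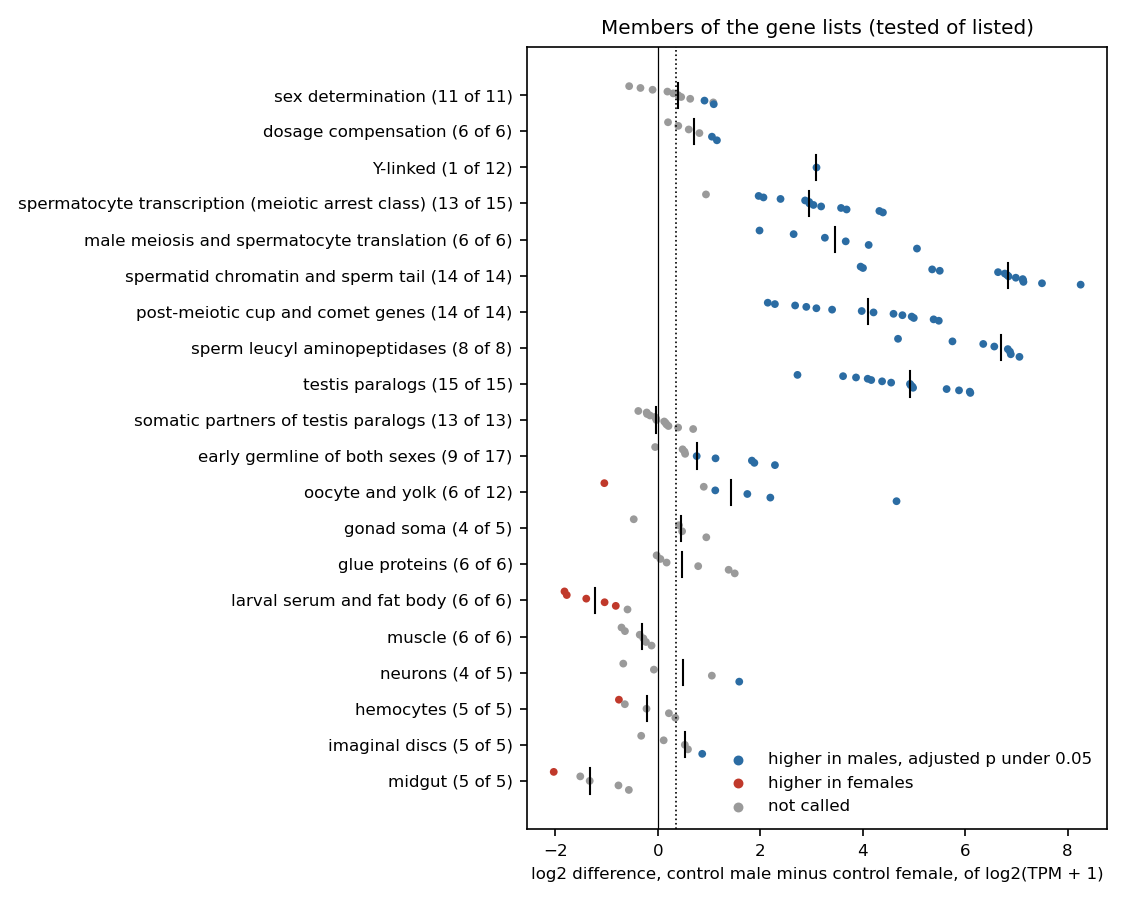
Male minus female difference in log2(TPM + 1) for each tested member of each gene list, 1 dot per gene, with the list median as a black bar and the median of all tested genes, 0.36, as a dotted line. The 6 testis lists have medians between 2.96 and 6.83, while somatic partners of testis paralogs, glue, muscle and hemocyte lists lie between -0.32 and 0.48.

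Testis forms of general cellular machinery differed between the sexes while their somatic partners did not pass the test. All 13 testis paralogs in 13 pairs were higher in males, and none of the 13 somatic partners was called in either direction, with a median of -0.03, although with median-of-ratios scaling Trx2 was called higher in females (-0.69, adjusted p = 0.0224). Of the 15 listed testis paralogs, 13 averaged under 1 TPM in females and entered the test through the males, so their direction was fixed by the filter. The other 2, Cyt-c-d and betaTub85D, were at 1 TPM or more on average in both sexes, as were all 13 somatic partners. Cytochrome c distal (Cyt-c-d), the form used in spermatids, was at 139.8, 143 and 179 TPM in control males and 3.79, 0.49 and 0.59 TPM in control females (6.10 ± 0.44, adjusted p = 2.34e-05), whereas the somatic Cyt-c-p was at 53.2, 52.4 and 61.5 TPM in control males and 43, 86.7 and 72.8 TPM in control females (-0.22, adjusted p = 0.586). Cyt-c-d thus made up 72.4, 73.2 and 74.5% of the pair in males and 8.1, 0.558 and 0.805% in females. The thioredoxin TrxT, which is X-linked and made in the male germline, supplied 40.1, 37.6 and 42.8% of its pair with Trx2 in males and 0, 0.213 and 0% in females. The sperm tubulin betaTub85D was at 116, 117 and 137 TPM in control males and 0.22, 2.8 and 1.01 TPM in control females (5.88) and made up 10.03, 10.8 and 11.6% of its pair with betaTub56D in males. The proteasome paralogs were more modest, from 18.2 to 25.6% of the pair in males for the regulatory subunit Rpt4R down to 0.909 to 2.14% for Prosalpha3T. Males were above females in the share of all 13 pairs, while the ribosomal partner RpL22 was at 1487, 1482 and 1221 TPM in control males and 1308, 779 and 629 TPM in control females (0.69, adjusted p = 0.0971) and passed the test without control female 1 (adjusted p = 0.00559).

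**Figure D3:**
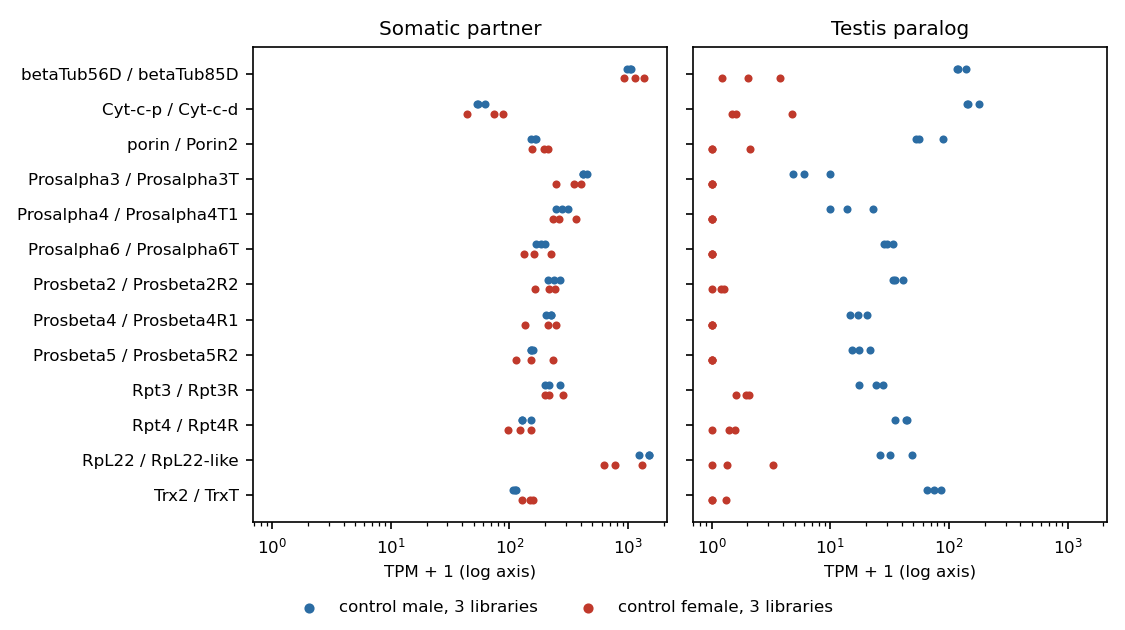
Levels in TPM on a log axis, after adding 1 TPM, of 13 somatic genes (left) and their testis paralogs (right) in the 6 control libraries, 1 point per library and colour by sex. Male and female points mix for most of the somatic genes and separate for the testis paralogs. Most of these paralogs entered the test through their male values.

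Of 17 genes of the early germ line, which both gonads use, 9 could be tested. Of these 5 were higher in males and none in females, beside 27.8% and 2.71% of all genes tested. Of the 9, 4 averaged under 1 TPM in females and entered the test through the males. Of the other 5, 1 (20%) was higher in males, a share near the 16.3% of all genes at 1 TPM or more in both sexes. The most abundant was bam, a switch from division to differentiation in both germ lines, at 45.9, 24.1 and 21.3 TPM in control males and 36.8, 18.4 and 11.1 TPM in control females (0.52 ± 0.45, adjusted p = 0.432), and males and females overlapped. The values of tud, ovo and Phf7 also overlapped, with differences of 0.48, -0.05 and 0.53. The 5 that were called were vas, nanos, bgcn, aub and stwl, named here because they passed, and vas, the germline RNA helicase, was at 4.42, 4.79 and 5.77 TPM in control males and 0.37, 0 and 0.34 TPM in control females (2.29). The locus of nanos overlaps CG11779. Markers of the somatic gonad gave no call among 4 tested members of 5, with Fas3 at 33.1, 21.6 and 24 TPM in control males and 49.1, 38 and 25.2 TPM in control females and eya at 12.3, 11.9 and 11.1 TPM in control males and 7.43, 10.4 and 7 TPM in control females.

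Of 12 members of the oocyte and yolk list 6 could be tested, 4 were higher in males and 1 in females, beside 27.8% and 2.71% of all genes tested. Of the 6, 3 averaged under 1 TPM in females and entered the test through the males, and among the other 3 grk was higher in males and Yp3 in females. The largest was orb, an RNA-binding protein of the oocyte that is also made in the male germ line, at 32.9, 29.2 and 31.1 TPM in control males and 0.33, 0.29 and 0.18 TPM in control females (4.66 ± 0.20, adjusted p = 4.16e-06). Males exceeded females many times over in orb, and no female reached 1 TPM. The TGF-alpha ligand grk was at 43.6, 54.6 and 30.7 TPM in control males and 29.3, 12.8 and 17.3 TPM in control females (1.12, adjusted p = 0.0396), where control female 1 came close to control male 3, and this call was lost when any library but control female 1 was left out (adjusted p 0.0537 to 0.152) and under median-of-ratios scaling. The thioredoxin dhd was at 1.39, 11 and 2.36 TPM in control males and 0 in every control female (2.20), a call lost without control male 3, female 2 or female 3 (adjusted p 0.0527 to 0.0678). The yolk protein gene Yp3 was the one member higher in females, at 3.62, 5.07 and 4.14 TPM in control males and 11, 7.49 and 11.4 TPM in control females (-1.04 ± 0.24, adjusted p = 0.0136), and this passed the threshold in all omissions except those of control male 1 and control male 3 (adjusted p 0.0578 to 0.0614).

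The genes higher in females differed less, with 1 exception. The largest difference was in CG43182, at X:353067-353317, which was at 0 in every control male and 32, 60.7 and 35.7 TPM in control females (-5.40 ± 0.28, adjusted p = 5.82e-06). Every female lay far above every male, and the males were all listed at 0. Asparagine synthetase (AsnS) was at 7.37, 6.54 and 11.2 TPM in control males and 24.6, 93.9 and 101 TPM in control females (-2.78 ± 0.52, adjusted p = 0.00491). The cytochrome P450 gene Cyp6a23 was at 1.34, 3.61 and 2.03 TPM in control males and 7.36, 18.5 and 24.1 TPM in control females (-2.32), and the acyl-CoA binding protein gene Acbp5 was at 12.3, 18.4 and 5.8 TPM in control males and 24, 69.8 and 198 TPM in control females (-2.55). The females were spread widely in AsnS, Cyp6a23 and Acbp5, with control female 1 lowest in each, and all females stayed above all males. CG11911 at 12.6, 19.6 and 9.98 TPM in control males and 46.7, 79.2 and 212 TPM in control females (-2.68) and CG41128 at 2.54, 3 and 9.49 TPM in control males and 22.5, 26.8 and 25.1 TPM in control females (-2.28) followed, and CG42486 was listed at 0 in every male and at 3.76, 13.6 and 2.78 TPM in females. The remaining 3 of the leading 10 were CG5550, CG14245 and Acbp4, with differences of -2.78, -2.54 and -2.28. Single libraries carried part of this group, since the calls of Acbp5 (adjusted p 0.0589 to 0.142) and Acbp4 (0.0565 to 0.139) were lost in 5 and 4 of the 6 omissions, those of CG5550 (0.0534 to 0.0651) without control male 1, male 3 or female 2, and those of CG14245 (0.0532 to 0.0656) without control male 1 or female 3.

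Larval serum and fat body genes formed the clearest female group among the tissue lists. Of 6 members 5 were higher in females and none in males, beside 2.71% and 27.8% of all genes tested. Their median was -1.22, and together they held 1.09, 0.679 and 0.794% of TPM in males and 2.07, 1.83 and 1.84% in females. The fat body gene Fbp2 was at 2859, 1399.98 and 1557 TPM in control males and 7908, 6064 and 5758 TPM in control females (-1.82 ± 0.28, adjusted p = 0.00178). The serum storage protein gene Lsp1alpha, named after its values had been seen, was at 218, 144 and 205 TPM in control males and 613, 472 and 913 TPM in control females (-1.78). All 3 females were above all 3 males in both genes, by a wide gap for Fbp2, which overlaps CG42847. Fbp1, a receptor for storage proteins, differed by -1.04 and Lsp1beta by -0.82, while Lsp2 was at 2818, 1827 and 2278 TPM in control males and 3089, 3600.2 and 3619 TPM in control females (-0.59, adjusted p = 0.0504), and passed with median-of-ratios scaling (adjusted p = 0.0189) and without control male 1 or control female 1 (0.0369 and 0.0470). Calls in this list were less stable than in the testis lists. Fbp1 lost its call in 4 of the 6 omissions (adjusted p 0.0774 to 0.145), Lsp1beta lost it without control male 1, male 2 or female 3 (0.0646 to 0.102), and with all 12 libraries in the fit Fbp2 gave an adjusted p of 0.322 and 1 of the 6 members was called.

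Other tissue lists gave few calls. Over all genes tested, 27.8% were higher in males, a share near that of the neuronal genes below, and 2.71% in females. None of 6 glue protein genes of the salivary gland was called with all libraries, although Sgs3 was called higher in males without control female 1 (1.40, adjusted p = 0.0309), and Sgs7 alone was at 82867, 74871 and 79889 TPM in males and 93024, 82763 and 58098 TPM in females. None of 6 muscle genes was called, with a median of -0.32. Among neuronal genes 1 of 4 tested was higher in males, the active zone gene brp at 7.11, 6.76 and 5.59 TPM in control males and 3.13, 1.16 and 0.71 TPM in control females (1.59, adjusted p = 0.0111), while elav, a pan-neuronal RNA-binding protein, was at 6.45, 7.67 and 3.83 TPM in control males and 10.9, 5.72 and 3.6 TPM in control females. Without control female 1 the synaptic gene nSyb was called higher in males (adjusted p = 0.0326), as was zfh1 of the gonad soma list (0.0328), and the proteases Jon65Aiv (0.0208) and alphaTry (0.0404) and the collagen vkg (0.0432) were called higher in females. The brp call was lost without control male 1 or male 2 (adjusted p 0.0511 to 0.0518). Among imaginal disc genes en differed by 0.87 (adjusted p = 0.0382), and among hemocyte genes the basement membrane collagen Col4a1 differed by -0.76 (adjusted p = 0.0395), but both calls were lost in 5 of the 6 omissions (adjusted p 0.0547 to 0.126 and 0.0773 to 0.126). With median-of-ratios scaling en was not called, and the collagen gene vkg (-0.94) and the synaptic gene Syt1 (-0.97) were called higher in females. In the midgut list 1 of 5 genes was called, the protease gene Jon99Ci at 7.31, 6.97 and 10.8 TPM in control males and 14.3, 54.1 and 62.5 TPM in control females (-2.03, adjusted p = 0.021), and no male reached the lowest female.

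The regulators of sex and of dosage compensation differed less in level than the genes of the testis. Of 11 sex determination genes 2 were higher in males, beside 27.8% of all genes, and none in females, with a median of 0.40 beside 0.36 over all genes. Transformer 2 (tra2), the splicing partner of Transformer, was at 35.7, 33.2 and 40.6 TPM in control males and 19.9, 21.5 and 10.4 TPM in control females (1.09 ± 0.28, adjusted p = 0.0223), and the zinc finger gene her was at 12.6, 9.95 and 12.4 TPM in control males and 8.75, 4 and 5.19 TPM in control females (0.91, adjusted p = 0.0469). The males were above the females in both genes, but the tra2 call was lost without any one of the males (adjusted p 0.0666 to 0.0969), the her call without any library except control female 1 (0.0931 to 0.155), and both under median-of-ratios scaling. Sxl itself was at 14.2, 15.8 and 12 TPM in control males and 35.4, 22.4 and 11.5 TPM in control females (-0.56, adjusted p = 0.309), with control female 3 below every other library, and its difference passed without that library (adjusted p = 0.0337). Its sister gene ssx, at 32.2, 23.3 and 24.4 TPM in control males and 20.5, 11 and 7.4 TPM in control females (1.08, adjusted p = 0.0511), passed without control female 1 (0.00534), with all 12 libraries in the fit (0.0431) and with a pseudocount of 5 TPM (0.0423). The level of dsx, at 9.75, 9.34 and 6.64 TPM in control males and 7.5, 3.9 and 4.47 TPM in control females (0.63, adjusted p = 0.138), passed without control female 1 (0.0402). The levels of tra, fru, ix, snf, vir and fl(2)d gave differences between -0.34 for vir and 0.46 for snf, none called.

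Of the 6 dosage compensation genes 2 were higher in males, a share near the 27.8% of all genes tested. The limiting subunit msl-2 was at 14, 13 and 13.2 TPM in control males and 5.58, 7.93 and 3.61 TPM in control females (1.15 ± 0.27, adjusted p = 0.0147). The chromodomain subunit msl-3 was at 23.6, 24.5 and 26.3 TPM in control males and 12.8, 10.5 and 11 TPM in control females (1.06 ± 0.18, adjusted p = 0.0029). Male and female libraries did not overlap in either gene, and the msl-2 call, unlike that of msl-3, was lost without any one of the males (adjusted p 0.0579 to 0.0667). The scaffold subunit msl-1 (0.81), the helicase mle (0.20), the acetyltransferase mof (0.60) and Clamp (0.40), which tethers the complex to the X, were not called.

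X-linked and autosomal genes were set side by side by their shares of calls, which are descriptions because genes are not replicates. Of 1785 X-linked genes tested 391 (21.9%) were higher in males and 57 (3.19%) in females, and of 9361 genes on the large autosome arms 29.1% and 2.54%. The share higher in males ranged from 27.7% on 3L to 32% on 2L among the 4 large arms. The median difference was 0.18 on the X and 0.40 on the autosome arms, values that with median-of-ratios scaling became -0.09 and 0.13, so that the X median changed sign while staying below the autosomal one. Restricting to genes with at least 5 TPM in every library, which drops genes near 0 in females, gave medians of 0.02 for 1001 X-linked and 0.21 for 4684 autosomal genes, with 6.69% and 15.8% higher in males. In these genes the median X-linked level over the median autosomal level was 0.812, 0.844 and 0.814 in males and 0.946, 0.972 and 0.962 in females (0.823 ± 0.018 against 0.96 ± 0.013, SD, n = 3, exact permutation p = 0.1). All males were below all females in this ratio. The median X-linked level overlapped between the sexes, at 24.1, 25.5 and 23 TPM in males and 21.9, 24.7 and 22 TPM in females (exact p = 0.3), while the median autosomal level was 29.7, 30.2 and 28.2 TPM in males and 23.1, 25.4 and 22.9 TPM in females (exact p = 0.1). The X chromosome supplied 11.3% ± 0.23 of all TPM in males and 10.7% ± 0.19 in females (SD, n = 3, exact p = 0.1), a gap of 0.565 percentage points that shrank to 0.236 without the glue, serum and fat body genes (exact p = 0.5).

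**Figure D4:**
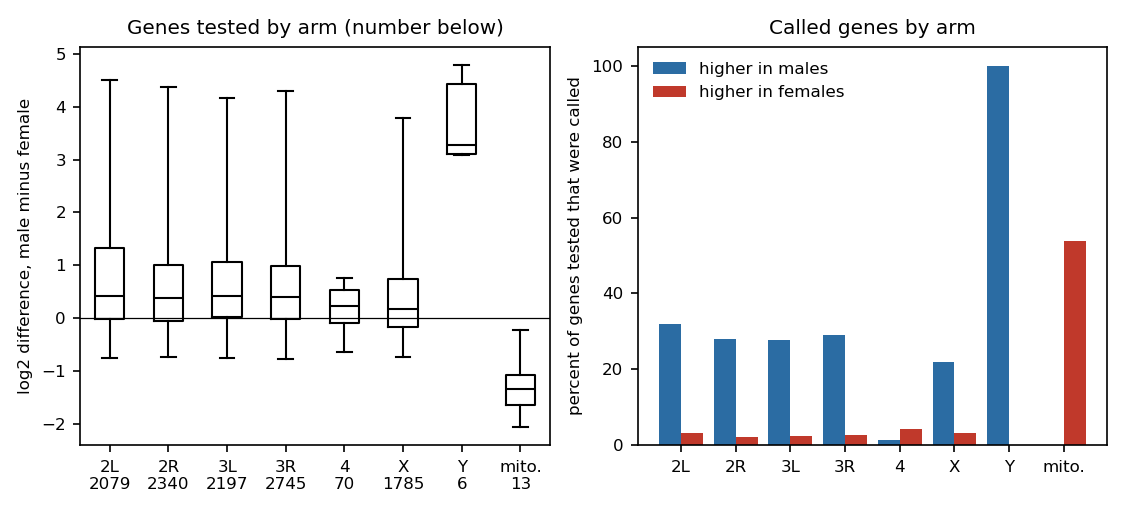
Left, male minus female difference in log2(TPM + 1) of tested genes by chromosome arm, with boxes for the quartiles and whiskers from the 5th to the 95th percentile; right, percent of tested genes higher in males or in females on each arm. The X median of 0.18, which becomes -0.09 with median-of-ratios scaling, lies below those of the 4 large autosome arms, from 0.37 to 0.42.

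Chromosome 4 and the mitochondrial genome had few or no genes higher in males. Of 70 genes tested on chromosome 4 only dati (1.72) was higher in males, 1.43% beside 27.8% of all genes tested. Pur-alpha (-0.99), apolpp (-1.35) and pho (-0.94) were higher in females, 4.29%, a share near the 2.71% of all genes tested. No gene of chromosome 4 was among the 627 male-only genes, which were 5.58% of all genes tested. Of 13 mitochondrial protein genes 7 (53.8%) were higher in females and none in males, beside 2.71% and 27.8% of all genes tested. Their median was -1.34, and the genes together held 0.254, 0.232 and 0.431% of TPM in males and 0.635, 1.12 and 0.603% in females. The cytochrome oxidase subunit gene mt:CoIII was at 962, 1006 and 1289.7 TPM in control males and 2493, 3246 and 1886 TPM in control females (-1.20), and mt:ATPase6 was at 118, 87.9 and 282 TPM in control males and 424, 1067 and 475 TPM in control females (-2.06). Females were above males in both genes, control female 2 highest.

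Y-linked transcripts were seen almost only in males, and only from a few genes. FDY, a recently duplicated Y-linked gene, was the one member of 12 listed Y-linked genes to be tested, at 17.1, 4.91 and 6.22 TPM in control males and 0, 0.27 and 0 TPM in control females (3.08 ± 0.43, adjusted p = 0.000962). Of the others, kl-2, Pp1-Y1 and Ppr-Y were listed at 0 in all 6 libraries, and kl-3, kl-5, ORY, CCY, PRY, WDY, ARY and Pp1-Y2 reached at most 1.81 TPM in males and were 0 in all females. The 6 Y-linked genes that could be tested all averaged under 1 TPM in females and entered the test through their male values, so the direction of their calls is no finding. Among them were CG45764 at 30.6, 25.9 and 42.6 TPM in control males and 0, 0.75 and 0 TPM in control females (4.79) and CG45765 at 67.7, 60.6 and 68.6 TPM in control males and 0 in every control female (6.06). Reads of CG45764 and CG45765 may be shared between them, so their split is uncertain. Of these 3 genes, control female 2 carried the only female traces, 0.27 TPM for FDY and 0.75 TPM for CG45764.

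The genes higher in males had short gene models, with a median messenger RNA of 1448 bases and 2 exons, and 25.9% (808 genes) had no intron, while genes that were not called had 1958 bases, 4 exons and 11% without an intron. Among the 627 male-only genes 41.8% had no intron, 70.7% had a single annotated transcript and 71.6% bore only a CG number. Over all genes tested these shares were 15.3%, 45.7% and 41.2%. Genes higher in females had 1441 bases and 3 exons, with 17% lacking introns. Genes called alike also lay beside each other in both sexes. Of the genes higher in males, 55.6% had an adjacent tested gene that was also higher in males, against 46.1% of all tested genes with such a neighbour. Of the genes higher in females, 17% had an adjacent gene also higher in females, against 5.29% of all tested genes. Runs of at least 4 adjacent genes higher in males numbered 110, and no such run was found for females. Of all genes tested, 27.8% were higher in males and 2.71% in females, and the number of runs expected at these shares was not computed. The longest held 11 genes, in 3 places, at 2L:15941441-16213304, at 2R:23183977-23309816 with RpL22-like and CG3124, and at 3R:25773334-25853989. A run of 10 genes at 2R:8358538-8372142 held the comet genes whip, swif and boly, and another of 10 at 3R:7346730-7423057 held the Mst84D genes. Adjacent genes that overlap share reads in unstranded data, so these counts include pairs whose reads cannot be separated.

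Splicing was compared through the percent spliced in (PSI), here a fraction from 0 to 1 of the TPM of an event's transcripts that carry its longer or alternative form. Events were built from the annotation in 7 classes: skipped exons (SE), mutually exclusive exons (MX), alternative 5′ and 3′ splice sites (A5 and A3), retained introns (RI) and alternative first and last exons (AF and AL). Of 7502 events testable in 2815 genes, 41 (0.547%) in 37 genes differed between the sexes at an adjusted p under 0.05 and a difference in PSI (ΔPSI) of at least 0.2, with higher PSI in males in 19 and in females in 22. The sexes did not overlap in any of the 41 events, beside 11.0% of all events tested, and the median size of ΔPSI was 0.715. Alternative first exons were the largest class, with 15 of 41 events called (36.6%) against 25.4% of the events tested. They were followed by 8 SE, 6 A3, 5 RI, 4 A5, 2 AL and 1 MX event. Of the 37 genes, 21 were also higher in males, 0 were higher in females and 16 were not called in expression, whereas 14% of all genes with a tested event were higher in males. On the X lay 4 of the 41 events (9.76%), beside 20.6% of the events tested. The count depended on the test, since the empirical procedure of the SUPPA tool gave 151 events, 22 of them shared with the 41 and all 22 with the same sign. It also depended on single libraries, since between 17 of the 41, without control female 1, and 28, without control male 3, were still called when 1 library was left out.

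In 4 events one form held all of the event's signal in males and the other all of it in females. These were a retained intron of CG31055, an A5 event of twe at 2L:16261505-16261617, an A5 event of Dcr-2 at 2R:17578495-17578557 and an AF event of CG11779, each with a PSI of 1 in every male and 0 in every female (adjusted p = 9.16e-08). As the values within a sex do not vary, these p-values rest on the spread of other events. The forms of twe that carried the signal were twe-RA in males and twe-RC in females, over 15.9, 18.8 and 17.3 TPM in the males and 3.52, 3.37 and 3.98 TPM in the females. The gene was much lower in females, so the female form rests on few transcripts, and its neighbour EndoGI overlaps it. Dcr-2, the Dicer of the small interfering RNA pathway, had totals of 9.75, 8.89 and 8.8 TPM in the males and 6.44, 4.46 and 3.56 TPM in the females, with the form Dcr-2-RA of 1722 residues in males and Dcr-2-RB of 1721 residues in females. It overlaps Rab4, CG11779 overlaps nanos, and CG31055, where reads in the intron matter, overlaps CG12880. The leading CG11779 transcript of males, CG11779-RB at 19.5, 18.7 and 23.4 TPM, belongs to neither form of the AF event.

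The next events were nearly as separate. The exon of CG16974 had a PSI of 1, 0.99 and 0.996 in males and 0, 0.005 and 0 in females (ΔPSI 0.993, adjusted p = 4.48e-07). The first exon of CG44774, an X-linked gene, had a PSI of 0.896, 0.908 and 0.98 in males and 0 in every female. The lipid enzyme gene Pect had an A3 event at 0.232, 0.135 and 0.102 in males and 1 in every female (ΔPSI -0.844), and the PDZ protein gene kermit an AF event at 0.146, 0.247 and 0.109 in males and 1 in every female (ΔPSI -0.833). In both events all female signal was in one form, while the second form made up most of the male signal. An event compares its own transcripts alone, and Pect-RD, the leading Pect transcript of females at 25.7, 35.1 and 18.5 TPM, belongs to neither form of this event. The totals behind these values were lower in females, and those of the kermit event were 37.5, 35.3 and 42.3 TPM in the males and 4.07, 10.3 and 2.25 TPM in the females. Stat92E, the transcription factor of the JAK/STAT pathway, had an A5 event at 0, 0 and 0.223 in males and 0.856, 1 and 1 in females (ΔPSI -0.878, adjusted p = 0.0433), and the channel gene subdued an AF event at 1 in every male and 0.144, 0.297 and 0 in females (ΔPSI 0.853, adjusted p = 0.0433). Each of these 2 calls was lost in 5 of the 6 omissions of a library (adjusted p 0.117 to 0.149 and 0.0517 to 0.178).

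Of the other called events, a few are given here that were chosen after their values had been seen. The splicing factor U2af50, which recognises 3′ splice sites and is X-linked, had an AF event at 0.555, 0.586 and 0.511 in males and 1 in every female (ΔPSI -0.449, adjusted p = 0.0049). The double-stranded RNA binding partner of Dicer, loqs, had an SE event at 0.387, 0.445 and 0.418 in males and 0.863, 0.902 and 0.819 in females (ΔPSI -0.445, adjusted p = 0.0133). Jupiter, a microtubule-associated protein, had an SE event at 0.718, 0.701 and 0.752 in males and 0, 0 and 0.086 in females, and Tm1, a tropomyosin, an AF event at 0.471, 0.527 and 0.449 in males and 0.157, 0.064 and 0.094 in females. Males used both forms in each of these 4 genes, and no male overlapped a female. A PSI of 1 in all females beside lower values in males appeared in AF events of Nuak, Taz, chb, sina and red as well.

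**Figure D5:**
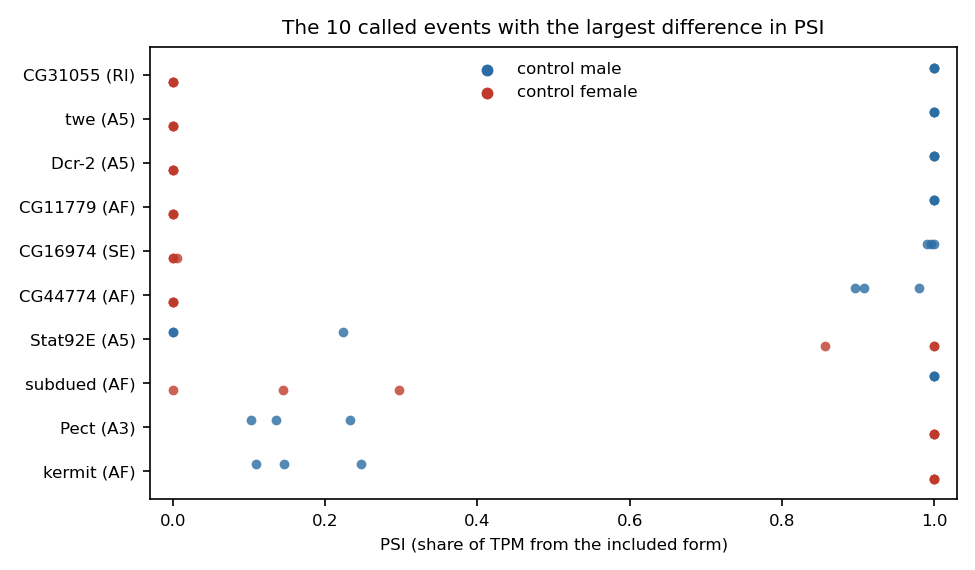
PSI, as a fraction from 0 to 1, in the 3 control male and 3 control female libraries for the 10 called events with the largest difference, 1 point per library. The 4 events at the top have all males at 1 and all females at 0, and the smallest difference shown, in kermit, is -0.833.

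The tested events of the sex determination genes themselves were not called. Of Sxl 8 events, of fru 5, and of dsx, msl-2 and tra 1 each could be tested, 16 in all. The dsx event, an alternative first exon, set dsx-RA, dsx-RB and dsx-RF against dsx-RC and dsx-RD. Each side held male and female forms, so this event could not show sex-specific splicing of dsx. The A3 event of tra was at 0.473, 0.198 and 0.34 in males and at 0.154, 0.037 and 0.069 in females (ΔPSI 0.25, adjusted p = 0.54). The males were all above the females, with control male 2 nearest to them, and the empirical procedure did call this event (adjusted p = 0.038).

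Dominant transcripts gave a second view of isoform use. Among 4221 genes with several annotated transcripts and at least 3 TPM in every library, 2326 had the same leading transcript in all 6 libraries, and 88 (2.08%) had one leading transcript in all males and another in all females. These 88 switches included 37 genes higher in males and 5 higher in females, beside 15.4% and 3.34% of the 4221 genes, and 6 on the X, beside 19.4%. The protein length differed in 37 of the switches, and 11 had a called event. CG6153, chosen after its values were seen like the other examples, used CG6153-RC in males at 24.1, 19.6 and 28 TPM and CG6153-RA in females at 10.1, 17.2 and 4.73 TPM, with each listed at 0 in the other sex and with proteins of the same 211 residues. CG9667 used CG9667-RA in males, with 272 residues, at 14.8, 30.2 and 18.8 TPM, and CG9667-RB in females, with 264 residues, at 18.6, 25.2 and 12.1 TPM. The deadenylase subunit gene twin led with a form of 358 residues in males and one of 552 residues in females. CG6153 and CG9667 were not called in expression, so the sexes differed there in the form used and not detectably in level.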

How the data were processed

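Total RNA from 3 L3 larvae per library was measured by mRNA sequencing in 3 control male and 3 control female libraries, the sex of each being read from its title. The deposited TPM values, 1 per transcript and summing to 1000000 per library, were made by the authors with Salmon on FlyBase transcripts of the dm6 (BDGP6) assembly, after trimming of the reads. No counts were used, so the depth per library is unknown and no counting interval is given. TPM is relative, so a change in abundant transcripts moves all others.

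TPM was summed per gene over the Ensembl release 115 annotation of BDGP6 (version 54), which held 29926 of 29936 transcripts; the other 10 were left out. Genes with a mean of 1 TPM or more over the 6 libraries were tested on log2(TPM + 1) with limma 3.58.1 (R 4.3.3, empirical Bayes with a variance trend, two-sided) and Benjamini-Hochberg adjustment over all 11239 genes. Events were derived from annotated exons in the 7 classes of SUPPA, which the authors used, required a mean of 3 TPM in each sex, and were tested on PSI with limma. The event fit had no variance trend, and its Benjamini-Hochberg adjustment was over all 7502 events. Single values were compared by exact permutation tests over libraries, which cannot go below p = 0.1. Libraries with the same number in their titles gave correlations of their deviations from the group means of 0.257, -0.064 and 0.142, so the numbers were not treated as pairs. The gene test and the event test were tried on simulated data. Of 200 genes given a difference, the gene test found 89. These were 73 of 100 at 2 log2 units and 16 of 100 at 1, and 2 other genes were called. The event test found 43 of 200, with 33 of 100 at a ΔPSI of 0.5 and 10 of 100 at 0.3. It called 1 other event. Genes and events that were not called may therefore still differ.

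The genes named were the 10 with the largest difference in each direction among called genes without overlap, all sex determination, dosage compensation and Y-linked genes, the 4 most abundant members of each other list, 13 pairs of paralogs and the 10 events with the largest difference; others are marked as chosen after their values were seen. The comparison and the lists were chosen with earlier results of these data known. Alternatives changed the pseudocount (0.1 and 5 TPM), the filter, the scaling, the libraries in the fit, the variance trend, the PSI minimum (1 and 10 TPM) and scale, and left out each library in turn. Pairs of genes that overlap or are near copies cannot be separated by the files. Some genes are not reported here. Sequences were not used here.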

Additional observations from a re-analysis of the deposited data

Results flagged for a closer look

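CG43182, at 0 TPM in all 3 control males, was present in libraries titled male outside the comparison of control larvae. In the libraries titled clamp null male, which enter no comparison above except through the spread of the fit with all 12 libraries, it was at 16.99, 8.42 and 23.58 TPM, beside 14.55, 57.76 and 32.39 TPM in clamp null females and 32.02, 60.7 and 35.7 TPM in control females. Every library titled clamp null male was therefore above every control male. Clamp null male 4 and male 5 had FDY at 0 TPM and the 6 testis lists at 0.002 and 0.004% of TPM. Clamp null male 6 had FDY at 6.93 TPM and these lists at 0.104%, beside 0.002 to 0.003% in clamp null females. Whether all of these libraries came from males was not tested. No test of the sexes within the clamp null larvae was made.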

How the results depend on the processing

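The count of genes higher in males lay between 2311 and 3269 under every alternative run, and it was 3173 with replicate number as a block. The count higher in females was less steady, at 659 with median-of-ratios scaling, 183 with all 12 libraries in the fit, 162 at an absolute log2 difference of at least 1, and 139 to 482 when single libraries were left out. The block on replicate number gave 366 there, it lowered the called events from 41 to 9, and under it ssx (adjusted p = 0.0191) and RpL22 (0.0418) passed. The numbers do not pair the libraries, and not every library correlated best with its own number. The called events were 79 with a minimum of 1 TPM, 14 with a minimum of 10 TPM, 151 with the empirical test, and 29 to 52 when single libraries were left out, of which 17 to 28 were among the 41. Dominant transcripts switched in 50 genes at a minimum of 10 TPM per library in place of 88. The X median of 0.18 became 0.12 with a pseudocount of 5 TPM, 0.10 among genes averaging 5 TPM or more, 0.02 with at least 5 TPM in every library, and it reversed to -0.09 with median-of-ratios scaling. The autosomal median of 0.40 became 0.46 and 0.27 with pseudocounts of 0.1 and 5 TPM, 0.13 with scaling, 0.21 with at least 5 TPM in every library, and 0.33 to 0.45 when single libraries were left out. The X share gap of 0.565 points became 0.236 without glue, serum and fat body genes. Among values of named genes 1726 stayed on their side of the threshold, 85 lost and 22 gained a call. No named gene called in the main fit changed direction. Changes of sign in genes without a call were not counted. For named events 269 stayed, 20 lost and 1 gained a call. Except where fewer genes, events or libraries entered by construction, the cause was not tested. The unknown depth limits what can be said of genes under 1 TPM.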

Other observations

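Gene families were also read by name across all tested genes, chosen after their values had been seen, and are given as counts without a test of the family. In energy metabolism the calls in males fell mostly on paralog copies. Of 71 nuclear subunits of complex I, complex IV and ATP synthase, 20 were higher in males and 2 in females, shares near the 27.8% and 2.71% of all genes tested, with a median difference of 0.15. The 19 subunits whose names end in L, which often marks a paralog, held 17 of the 20 calls and had a median of 4.18, while the other 52 had 3 calls in males and a median of 0.00. All 17 averaged under 1 TPM in females and entered the test through the males, so their direction was fixed by the filter. ND-20L, for example, a copy of a complex I subunit, was at 37.8, 40.1 and 44.8 TPM in control males and 0, 0.96 and 0.66 TPM in control females (4.82). The males were all above the females in ND-20L, and control female 1 was listed at 0. Among 16 glycolytic enzymes 4 were higher in males (Hex-t1, Hex-t2, Ald2 and Pglym87) and 5 in females (Ald1, Gapdh1, Gapdh2, Pgk and Pglym78). The 4 higher in males likewise averaged under 1 TPM in females and entered the test through the males. Phosphoglycerate mutase showed both, with Pglym87 at 65.4, 57.6 and 79.96 TPM in control males and 0, 0.83 and 0 TPM in control females (5.80) and its relative Pglym78 at 204, 174 and 226 TPM in control males and 335, 293 and 569 TPM in control females (-0.93). Aldolase did likewise, with Ald2 at 26, 15.4 and 20.01 TPM in control males and 0 in every control female and Ald1 at 328, 257 and 289 TPM in control males and 431, 371 and 547 TPM in control females (-0.61). The females were above the males in Pglym78 and Ald1 by a small margin and without overlap, whereas both other genes were nearly confined to males.

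Ribosomal proteins were mostly level between the sexes, with 8 of 92 tested genes named RpL or RpS, copies named as like included, higher in males, 1 higher in females and a median of 0.02. Over all genes tested, 27.8% were higher in males and 2.71% in females. Vacuolar ATPase subunits had 11 of 32 genes higher in males and 1 in females, near the shares of all genes. All 4 radial spoke head genes, whose products belong to the axoneme of cilia and flagella, were higher in males with a median of 4.14, and so were 5 of 9 kinesin-like genes. Of these, Rsph1, Rsph3, Rsph4a, Klp59C and Klp59D averaged under 1 TPM in females and entered the test through their male values. Of 57 cytochrome P450 genes 42 were not called, 11 were higher in females and 4 in males. Of 16 Jonah proteases of the gut 13 were not called and 3 were higher in females, and of 6 acyl-CoA binding protein genes 4 were higher in females and 2 were not called, beside 2.71% of all genes. Jon25Bi was at 86.7, 86.3 and 81.2 TPM in control males and 211, 181 and 342 TPM in control females (-1.46), with control female 3 highest and no overlap. Genes near 0 in females, as many of these copies are, entered the test through their male values. Members of these families can be near copies, so the split of reads between them is uncertain.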
